A study of Homo sapiens with 6 samples.

Results

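Untreated PANC-1 cells were described here by the RNA level of each gene at rest. PANC-1 is a human cell line established from a carcinoma of the pancreatic duct. The series held 6 RNA-seq samples of this line, and the 3 labelled as untreated (PANC-1 1, PANC-1 2 and PANC-1 3) were used, chosen by that label alone. They were grown in DMEM with 10% FBS and received no maslinic acid (MA), the plant triterpene given to the other samples, which were not analysed here. The study's general methods name DMSO, the solvent, for cells without MA, whereas the labels call these samples untreated. All 3 came from 1 line, so the spread between them is a spread between cultures of that line and not between tumours.

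Levels are FPKM, fragments scaled to the length of the gene and the depth of the sample, so that different genes can be set side by side. A gene is described as expressed when it stood at 1 FPKM or more in each of the 3 samples, and as silent when it stood under 0.1 FPKM in each. The deposited estimated counts summed to 70275355, 65607669 and 59422939 in PANC-1 1, 2 and 3. Each sum is larger than the number of valid reads listed for that sample, so a count is an estimate and not a number of reads. Positions are those of GRCh38.

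Cells of the pancreatic duct are an epithelium. Their intermediate filaments are built from simple keratins, chiefly keratins 7, 8, 18 and 19, and E-cadherin holds them to each other. Carcinoma cells can lose part of this set and take up vimentin and N-cadherin, the filament and the cadherin of mesenchymal cells, a change named epithelial to mesenchymal transition. The locus of CDKN2A, which encodes the cell cycle inhibitors p16 and p14ARF, is lost in a large share of pancreatic carcinomas, and PANC-1 is known as a line without it.

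Of the 4 markers chosen for the line, VIM, KRT18 and KRT8 were strongly expressed and CDKN2A was silent. VIM (vimentin, ENSG00000026025, chr10:17228241-17237593, plus strand) stood at 608, 754 and 634 FPKM in PANC-1 1, 2 and 3. KRT18 (ENSG00000111057, chr12:52948871-52952900, plus strand), the acidic simple keratin, stood at 323, 338 and 313 FPKM. KRT8 (ENSG00000170421, chr12:52897187-52949920, minus strand), its basic partner in the same filament, stood at 206, 207 and 225 FPKM. VIM was highest in PANC-1 2, and its lowest sample was above the highest sample of either keratin. CDKN2A (ENSG00000147889, chr9:21967753-21994873, minus strand) had 5, 0 and 19 estimated counts, an FPKM of 0.0134, 0 and 0.0612.

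The upstream sequence of genes at both ends of this range is shown here, to set the starts of a strongly expressed and of silent genes side by side. Each is the 250 bases before a transcript start in RefSeq (GRCh38.p14), 5′ to 3′ on the strand of the gene, with each CG dinucleotide in capitals. CDKN2A has a start for each of its products. VIM is the most abundant intermediate filament gene, and CPB1, which encodes the digestive enzyme carboxypeptidase B of acinar cells, had no count in the 3 samples.
CDKN2A, chr9:21974858-21975107, minus strand: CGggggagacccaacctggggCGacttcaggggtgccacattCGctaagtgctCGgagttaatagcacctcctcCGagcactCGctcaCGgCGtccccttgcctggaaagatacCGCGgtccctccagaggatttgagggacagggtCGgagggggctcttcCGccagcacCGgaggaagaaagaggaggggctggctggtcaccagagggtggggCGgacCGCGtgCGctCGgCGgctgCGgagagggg
CDKN2A, chr9:21995325-21995574, minus strand: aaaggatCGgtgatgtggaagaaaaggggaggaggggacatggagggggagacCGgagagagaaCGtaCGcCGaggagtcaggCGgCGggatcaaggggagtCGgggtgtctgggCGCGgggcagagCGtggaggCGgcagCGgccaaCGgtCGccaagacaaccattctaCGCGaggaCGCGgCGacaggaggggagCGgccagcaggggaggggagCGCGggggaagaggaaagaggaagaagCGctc
VIM, chr10:17227991-17228240, plus strand: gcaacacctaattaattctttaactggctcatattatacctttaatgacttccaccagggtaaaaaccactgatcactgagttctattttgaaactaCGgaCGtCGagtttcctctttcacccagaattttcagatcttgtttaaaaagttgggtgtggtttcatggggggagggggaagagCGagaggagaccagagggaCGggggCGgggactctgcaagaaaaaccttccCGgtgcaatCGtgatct
CPB1, chr3:148827561-148827810, plus strand: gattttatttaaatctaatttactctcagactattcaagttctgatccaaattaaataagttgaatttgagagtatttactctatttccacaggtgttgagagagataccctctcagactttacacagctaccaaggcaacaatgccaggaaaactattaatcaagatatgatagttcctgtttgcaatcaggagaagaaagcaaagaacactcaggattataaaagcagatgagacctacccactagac
The upstream bases of CDKN2A held 20 and 24 CG, those of VIM 8 and those of CPB1 0. Over the whole entry of 300 bases, which runs 50 bases past the start, the counts were 26 and 28 in CDKN2A, 10 in VIM and 0 in CPB1. Of all 35116 promoter entries of that length, 56.4% held at least 10 CG and 41.2% at least 20. The letters TATAAA, searched on both strands as TATAAA or TTTATA, were found in 11.5% of all entries and, of the 4 shown, in that of CPB1 alone. Both the CG-rich entries of CDKN2A and the CG-free entry of CPB1 belonged to genes at or near 0, and VIM lay between them in CG at a mean of 665 FPKM. The 4 entries were picked for display and do not describe how CG content goes with level over all genes. DNA methylation was not measured, and its part in these levels was not tested.

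Of 58825 genes in the table, 10962 were expressed, 9906 of them with a protein-coding transcript, which is 50.2% of the 19727 such genes. A further 6504 protein-coding genes (33.0%) were silent, and 4111 had no count in any of the 3 samples. The median over all protein-coding genes was 1.24 FPKM, and over the expressed ones 6.92 FPKM. A mean of at least 10 FPKM was reached by 3943 genes, one of at least 100 FPKM by 338 and one of at least 1000 FPKM by 25.

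The RNA of the mitochondrial genome took a large share. Its 37 genes, all expressed, made up 25.1%, 24.7% and 25.2% of the summed FPKM in PANC-1 1, 2 and 3. In estimated counts, which are not divided by gene length, they made up 6.61%, 6.53% and 6.53%. Nuclear copies of them, such as MTATP6P1 at a mean of 1140 FPKM, are not among the 37 and may hold their reads. The 20 most abundant genes held 27.0% ± 0.275 (SD, n = 3) of the summed FPKM, and 16 of them were mitochondrial. MT-CO2, MT-CO1 and MT-CO3, subunits of cytochrome c oxidase, led them. MT-CO2 stood at 9032, 9039 and 8552 FPKM, and MT-CO1 at 6603, 6871 and 6489 FPKM. Short genes such as MT-TC, a transfer RNA gene at 3300, 3424 and 3560 FPKM, lie inside the long mitochondrial transcripts and share reads with them, so their own levels are uncertain.

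The 4 nuclear genes among the 20 were TMSB10, GAPDH, EEF1A1 and FTL. TMSB10 (thymosin beta-10, which binds actin monomers) stood at 3758, 3817 and 3592 FPKM. GAPDH, the glycolytic enzyme, stood at 2427, 2227 and 2515 FPKM. EEF1A1, the elongation factor that brings aminoacyl-tRNA to the ribosome, stood at 2041, 2136 and 1996 FPKM, and shares sequence with the pseudogene EEF1A1P5, listed at 525, 561 and 496 FPKM. FTL, the light chain of the iron store ferritin, stood at 1871, 1974 and 1728 FPKM. These 4 varied little, with a spread between samples of 3.13% of the mean for TMSB10 and 6.63% for FTL. RPS16, a protein of the small ribosomal subunit, was next among nuclear genes at 1763, 1861 and 1677 FPKM. Of 85 cytosolic ribosomal protein genes 81 were expressed, against 50.2% of all protein-coding genes. This family together took 6.26%, 6.55% and 6.05% of the summed FPKM, with RPS16, RPS12 and RPL41 the highest.

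All 20 housekeeping genes on the list were expressed, with a median of 191 FPKM. In the S100 family of calcium-binding proteins 8 of 19 genes were expressed, against 50.2% of all protein-coding genes. Within it, S100A11, S100A6 and S100A10 stood far above the rest. S100A11 stood at 804, 803 and 770 FPKM and S100A6 at 604, 736 and 590 FPKM. The fourth, S100A16, reached 11.9, 9.03 and 6.86 FPKM.

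Within the intermediate filaments, the most abundant were vimentin, the simple pair of keratins 8 and 18, the nuclear lamins and keratin 80. Of 30 genes on the list 11 were expressed and 14 were silent, 7 of them without a count. Over all protein-coding genes, 50.2% were expressed and 33.0% silent. The median of the list was 0.217 FPKM, against 1.24 FPKM over all protein-coding genes. VIM exceeded KRT8 by 1.64 ± 0.19 on the log2(FPKM + 0.1) scale (SD, n = 3), most in PANC-1 2, a mean ratio of 3.13. It exceeded KRT18 2.05-fold ± 0.175 (SD, n = 3). The FPKM of KRT18 was 1.53-fold ± 0.121 that of KRT8 (SD, n = 3). The order turned in the estimated counts, which are not per length, with 83154, 81248 and 68060 for KRT18 against 118997, 111899 and 109471 for KRT8. The deposited spans of KRT8 and KRT18 overlap at their ends on opposite strands, and whether counting used the strand is not given in the sources used here. The processed copies of these genes took few reads, since the 50 KRT8 pseudogenes summed to 9.88 ± 0.827 FPKM and the 67 KRT18 pseudogenes to 1.08 ± 0.176 FPKM (SD, n = 3).

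Of the other keratins, KRT80 alone passed 10 FPKM in its mean. KRT80, a type II keratin made in many epithelia, stood at 73.7, 81.9 and 106 FPKM, highest in PANC-1 3. KRT7, the partner keratin of ducts, stood at 2.13, 2.19 and 1.76 FPKM. KRT19, the other common ductal keratin, had 0, 8 and 4 estimated counts and was silent. KRT5 and KRT14 of basal epithelia and KRT20 of intestinal epithelium were silent too, KRT14 and KRT20 without a count. Across the family, 6 of 55 protein-coding keratin genes were expressed and 35 had no count. Over all protein-coding genes, 50.2% were expressed and 20.8% had no count. LMNA, the gene of lamins A and C in the nuclear envelope, stood at 109, 117 and 99.0 FPKM.

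**Figure D1:**
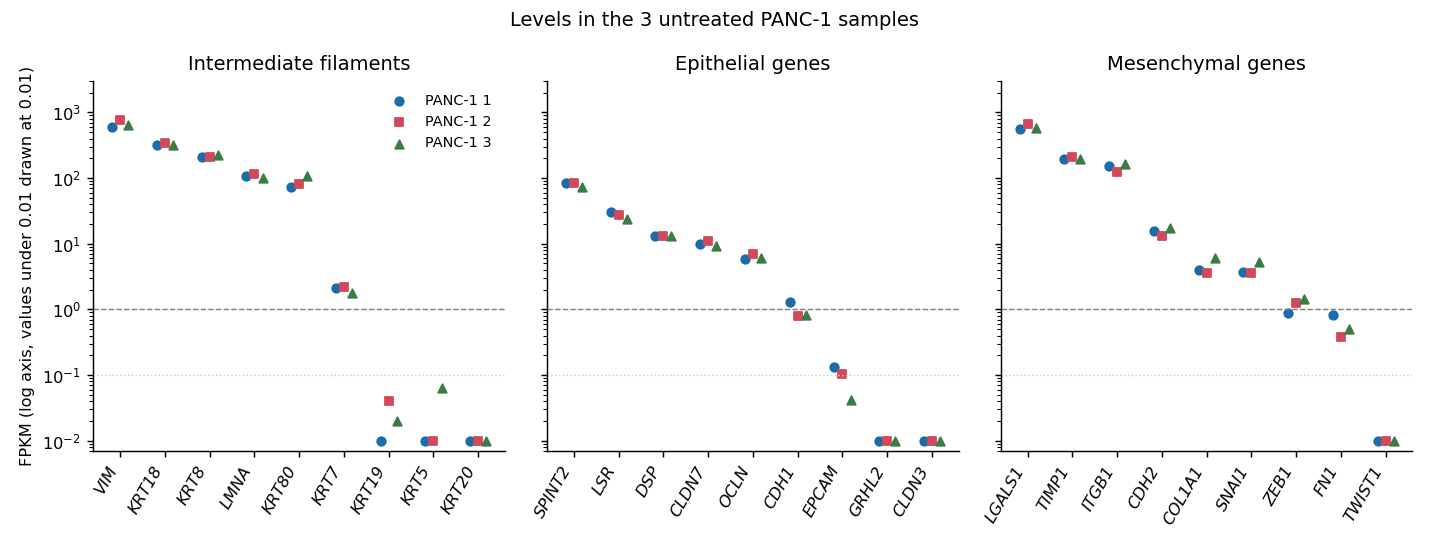
FPKM on a log axis of 27 genes in 3 groups, with 1 symbol per untreated PANC-1 sample; the dashed line marks 1 FPKM and the dotted line 0.1 FPKM, and values under 0.01 are drawn at 0.01. VIM, KRT18 and KRT8 lie above 200 FPKM in every sample, while KRT19, GRHL2, CLDN3 and TWIST1 lie under 0.1 FPKM.

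Epithelial and mesenchymal genes were both present, each list with a part strongly expressed and a part silent. Of 47 epithelial genes 23 were expressed and 12 silent, with a list median of 0.966 FPKM. Of 53 mesenchymal genes 26 were expressed and 11 silent, with a list median of 1.23 FPKM, and VIM is on this list too. For comparison, 50.2% of all protein-coding genes were expressed and 33.0% silent, and the median over them was 1.24 FPKM. The shares of the lists, 48.9% and 49.1%, are thus near that of all genes.

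The expressed epithelial genes included genes of desmosomes and tight junctions. SPINT2, a membrane-bound inhibitor of serine proteases, was the highest at 83.1, 83.7 and 71.8 FPKM. LSR, which organizes tricellular junctions, followed at 30.9, 27.3 and 24.0 FPKM. CTNND1 (p120 catenin, which steadies cadherins at the membrane) stood at 21.4, 10.4 and 17.2 FPKM, lowest in PANC-1 2. The CTNND1 gene overlaps another gene with counts on the same strand. JUP, PPL, PKP3, DSP and DSG2, parts of the desmosome and its links to keratin, all lay between 11 and 19 FPKM in every sample. The claudins CLDN1 and CLDN7 of the tight junction were expressed as well, CLDN1 at 10.97, 15.3 and 12.3 FPKM. In all, 6 of 24 claudins were expressed, against 50.2% of all protein-coding genes.

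CDH1 (E-cadherin) stood at 1.28, 0.795 and 0.818 FPKM, and passed 1 FPKM in PANC-1 1 alone. CDH2 (N-cadherin) stood at 15.6, 13.1 and 17.3 FPKM, above CDH1 in each sample and by 16.6-fold ± 4.54 (SD, n = 3). CDH2 and CDH24 were the only 2 of 23 cadherins of this name expressed, against 50.2% of all protein-coding genes. EPCAM, the adhesion molecule of most carcinomas, had 28, 21 and 8 estimated counts. GRHL2, which switches on epithelial junction genes, had 4, 2 and 4 estimated counts and was silent, and RAB25, OVOL1 and CLDN3 had none. The splicing factors of epithelial cells differed, with ESRP2 at 2.42, 2.20 and 2.64 FPKM and ESRP1 at 0.110, 0.134 and 0.142 FPKM.

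The mesenchymal list was led, after VIM, by LGALS1, TIMP1, ITGB1 and TPM2. LGALS1 (galectin-1, a secreted lectin) stood at 563, 661 and 580 FPKM. TIMP1, an inhibitor of matrix metalloproteinases, stood at 192, 209 and 196 FPKM. ITGB1, the beta-1 chain of the integrins that bind matrix, stood at 155, 125 and 165 FPKM, and the tropomyosin TPM2 at 140, 143 and 154 FPKM. Genes known from fibroblasts differed among themselves. COL5A2, a fibrillar collagen, stood at 34.4, 26.4 and 41.3 FPKM. DCN, POSTN, FAP and PDGFRA, known from stromal fibroblasts, were silent with at most 12 estimated counts in any sample, and FN1 (fibronectin) stood at 0.812, 0.383 and 0.496 FPKM.

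Among the factors that drive the transition, SNAI1 was the most abundant. SNAI1, a repressor of CDH1, stood at 3.74, 3.63 and 5.20 FPKM. SNAI2 stood at 1.29, 0.969 and 1.43 FPKM and ZEB1 at 0.891, 1.26 and 1.42 FPKM, each on both sides of 1 FPKM. ZEB2 stood at 0.113, 0.0881 and 0.122 FPKM, and TWIST1 had no count. Of 44 collagen genes 15 were expressed and 21 silent, against 50.2% and 33.0% of all protein-coding genes. COL18A1, a collagen of basement membranes, led them at 38.2, 41.7 and 40.7 FPKM, followed by COL5A2 and COL5A1 of fibrils. COL1A1 stood at 3.97, 3.59 and 5.96 FPKM, whereas COL1A2, whose product joins it in the same triple helix, had an FPKM of 0.378, 0 and 0.

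**Figure D2:**
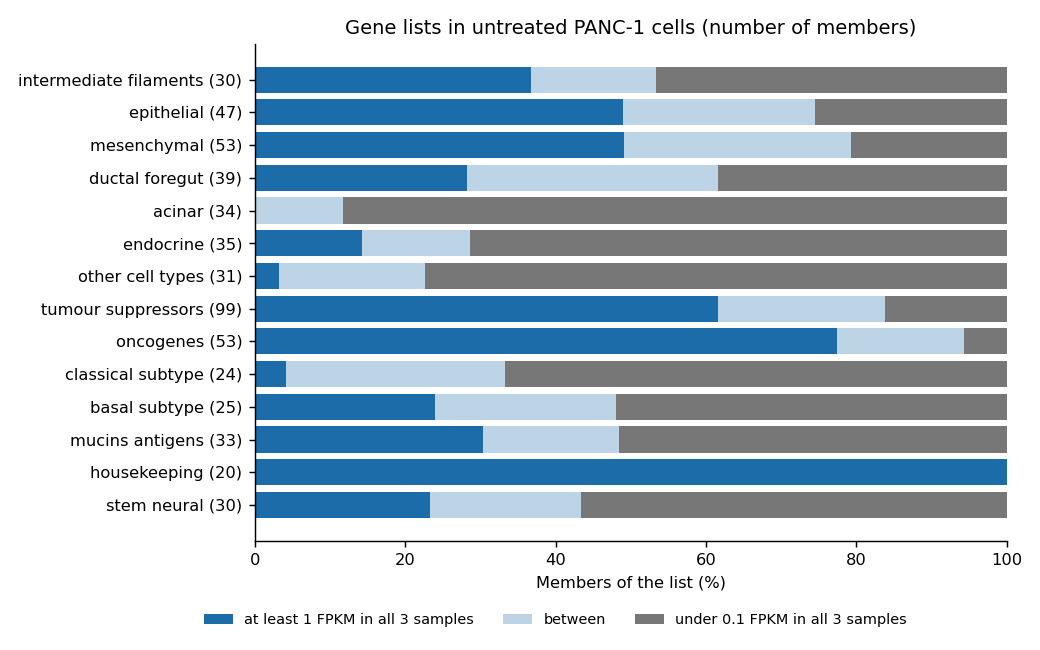
Share of the members of 14 gene lists, in percent, that were expressed (at least 1 FPKM in all 3 samples), silent (under 0.1 FPKM in all 3) or between, with the number of members beside each name. Housekeeping genes were all expressed, and of the acinar list 0 of 34 members were.

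Of 39 ductal and foregut genes 11 were expressed and 15 silent, against 50.2% and 33.0% of all protein-coding genes. The expressed share was 28.2%, and the list median was 0.120 FPKM against 1.24 FPKM. SOX9, the factor of ductal and progenitor cells, was the highest at 17.3, 18.2 and 16.6 FPKM. ANXA4, HES1, FOXA2 and GATA4 followed, HES1 being a target of Notch and FOXA2 and GATA4 factors of foregut endoderm. GATA4 stood at 8.62, 3.55 and 8.37 FPKM, lowest in PANC-1 2, and FOXA2 at 7.94, 7.12 and 7.80 FPKM. GATA6, the relative of GATA4 and a marker of well differentiated pancreatic carcinoma, stood at 0.900, 1.17 and 0.792 FPKM. PDX1, the master factor of the pancreas, had 29, 23 and 7 estimated counts, an FPKM of 0.129, 0.110 and 0.0375. Silent were HNF4A, a factor of endoderm, and CFTR, the chloride channel gene of ducts.

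Of 34 acinar genes 0 were expressed, 30 were silent and 23 had no count. Over all protein-coding genes, 50.2% were expressed, 33.0% silent and 20.8% without a count. Acinar genes without a count included PRSS1, CPA1, CPB1, PNLIP and AMY2A, which encode digestive enzymes, and the acinar factor PTF1A. CTRL, a chymotrypsin-like protease, was the highest at 0.370, 0.334 and 0.389 FPKM. Of 35 endocrine genes 5 were expressed (14.3%) and 21 had no count. The median of each of these lists was 0 FPKM, against 1.24 FPKM over all protein-coding genes. These 5 were ENO2, CPE, SYP, ISL1 and CHGB, and ENO2 (neuronal enolase) alone passed 10 FPKM in its mean, at 11.8, 16.3 and 9.79 FPKM. The hormones INS, GCG, SST and PPY had no count.

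Of 31 markers of other cell types, with a median of 0.00466 FPKM, 24 were silent, against 33.0% of all protein-coding genes. Only 1 was expressed (3.23%, against 50.2% of all protein-coding genes). The expressed one was CD68, a lysosomal membrane protein best known from macrophages. CD68 stood at 25.6, 40.9 and 26.6 FPKM, highest in PANC-1 2, while PTPRC (CD45 of all leukocytes), CD163, CD3E, MS4A1 and HBB had no count and PECAM1 of endothelium had 16, 8 and 16 estimated counts. The whole list summed to 27.1, 42.5 and 28.0 FPKM, nearly all of it CD68. In these bulk samples, fewer cells that make an RNA and less RNA per cell cannot be told apart.

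Genes used to sort pancreatic carcinomas into a classical and a basal-like subtype were mostly not expressed, 4.17% of the classical and 24% of the basal-like list against 50.2% of all protein-coding genes. The list medians were 0.0220 and 0.0284 FPKM. Of 24 classical genes 1 was expressed, AGR2, a protein disulfide isomerase of mucus-secreting cells, at 88.3, 83.0 and 90.8 FPKM. The trefoil factors TFF1, TFF2 and TFF3 and CEACAM6 followed at means under 1 FPKM. Of 25 basal-like genes 6 were expressed, AREG, SLC2A1, CTSV, DHRS9, KRT7 and S100A2. AREG (amphiregulin, a ligand of EGFR) stood at 37.2, 44.4 and 33.0 FPKM and SLC2A1 (the glucose carrier GLUT1) at 20.5, 21.5 and 21.4 FPKM. KRT6A, KRT6C, LY6D and SPRR3, genes of squamous epithelium, had no count. No subtype was assigned from these counts.

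Of 33 mucins and tumour antigens 10 were expressed (30.3%) and 17 silent, against 50.2% and 33.0% of all protein-coding genes. The list median was 0.0243 FPKM, and MUC2, MUC4, MUC5AC, MUC16 and CEACAM5 were among the silent ones. MUC1, the membrane mucin of ducts, stood at 2.34, 1.51 and 1.46 FPKM, and MSLN (mesothelin) at 2.02, 1.84 and 1.96 FPKM. The highest of the list were the zinc carrier SLC39A6, the hyaluronan receptor CD44, the proteoglycan GPC1, CD276 and L1CAM. CD44 stood at 16.9, 15.7 and 16.6 FPKM, and L1CAM, an adhesion molecule of nerve cells, at 7.38, 7.84 and 8.44 FPKM. Of 30 stem cell and neural genes 7 were expressed (23.3%, list median 0.0478 FPKM), led by TUBB3 (neuronal tubulin beta-3) at 28.9, 22.2 and 58.3 FPKM, highest in PANC-1 3, and SOX2 and NANOG were silent.

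Most tumour suppressor genes were expressed. Of 99 on the list 61 were expressed, a share of 61.6% against 50.2% of all protein-coding genes, and the list median was 2.36 FPKM. The 16 silent ones were a smaller share than the 33.0% of all protein-coding genes that were silent. GSTP1, ZFP36, CDKN1A, TGFBR2 and RBM10 were the highest. GSTP1, a glutathione transferase, stood at 168, 175 and 181 FPKM. CDKN1A (p21, an inhibitor of cyclin-dependent kinases) stood at 57.7, 69.2 and 70.1 FPKM. TGFBR2, the type II receptor of TGF-beta, stood at 41.3, 42.0 and 42.5 FPKM. SMAD4, the common mediator of TGF-beta signals and often lost in pancreatic carcinoma, stood at 2.53, 2.26 and 2.65 FPKM. An RNA level does not show whether the protein works.

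The 16 silent members included CDKN2A and its neighbour CDKN2B, whose product p15 inhibits the same kinases, with 0, 0 and 4 estimated counts. SFRP2 and WIF1, secreted inhibitors of Wnt, and the phosphatase gene PTPRD had no count in any sample. Also silent were TP63, RUNX3, FHIT, CDH13, RARB, SERPINB5, DAPK1, TFPI2, THBD and PENK, each with at most 26 estimated counts in a sample. The other 2 INK4 inhibitors, CDKN2C and CDKN2D, were expressed, at 15.6, 13.8 and 17.9 FPKM and at 8.998, 8.89 and 9.30 FPKM. SFRP1 stood at 20.96, 18.1 and 19.5 FPKM, against none for SFRP2.

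CDKN2A lies on the short arm of chromosome 9. Of 25 protein-coding genes within 2 Mb of it, 16 had no count, against 20.8% of all protein-coding genes, and 2 were expressed, FOCAD and KLHL9. Of the 16, 15 are interferon genes, and among the 9 other genes 1 had no count. FOCAD, which encodes a focal adhesion protein, stood at 6.68, 6.11 and 5.15 FPKM. KLHL9, an adaptor of a ubiquitin ligase, stood at 3.45, 3.16 and 3.62 FPKM. MTAP, the enzyme of the methionine salvage pathway next to CDKN2A, stood at 0.522, 0.985 and 0.905 FPKM, under 1 FPKM in each sample and above CDKN2A in each. Of 17 interferon genes of this chromosome arm, most of them between FOCAD and MTAP, 16 had no count and IFNE stood under 0.1 FPKM. Beyond CDKN2B, DMRTA1 stood at 0.484, 0.516 and 0.506 FPKM, and ELAVL2, a neuronal RNA-binding protein, had no count. The long noncoding RNA gene MIR31HG stood at 4.36, 3.11 and 2.61 FPKM. Nearby pseudogenes listed above 1 FPKM, such as KHSRPP1 and CLIC4P1, copy expressed genes elsewhere and may hold their reads. Copy number was not measured, and its part in these levels was not tested.

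**Figure D3:**
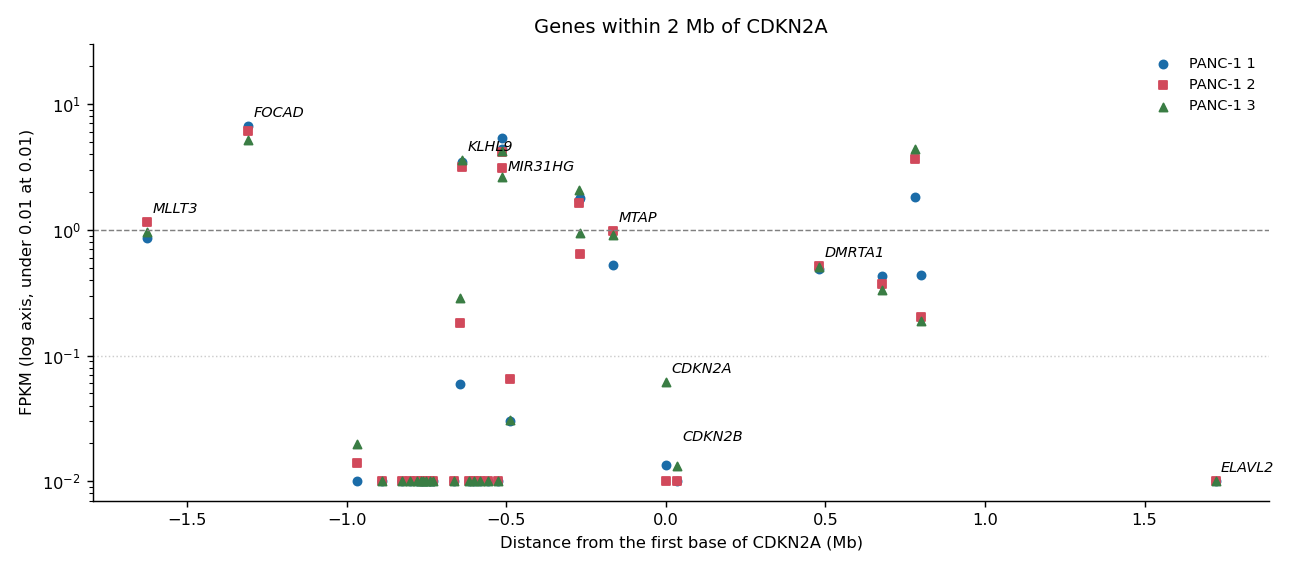
FPKM on a log axis in the 3 untreated PANC-1 samples against distance from the first base of CDKN2A in Mb, for protein-coding genes and for other genes with a mean above 0.1 FPKM; values under 0.01 are drawn at 0.01. FOCAD and KLHL9 lie above 1 FPKM, MTAP just under it, and CDKN2A and CDKN2B under 0.1 FPKM.

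Of 53 oncogenes 41 were expressed (77.4%, against 50.2% of all protein-coding genes), with a list median of 7.64 FPKM against 1.24 FPKM. At 5 FPKM or more in each sample stood 28 of the 53, and 6018 of all 58825 genes. HMGA1, a chromatin protein of embryonic and cancer cells, was the highest at 170, 187 and 152 FPKM. CCND1 (cyclin D1) stood at 105, 102 and 102 FPKM and its kinase CDK4 at 74.2, 68.9 and 55.5 FPKM. AKT2, a kinase downstream of PI3-kinase, stood at 63.9, 69.2 and 74.5 FPKM, and the receptor kinase AXL at 64.3, 68.4 and 61.8 FPKM. The growth factor receptor EGFR stood at 25.1, 28.6 and 23.8 FPKM. LIN28A, ERBB4 and MYCN were silent. On this list MYC alone differed by over 3 times between samples with a mean of at least 1 FPKM, at 8.26, 0.820 and 0.318 FPKM, high in PANC-1 1 alone.

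Among nuclear genes, the most abundant run of neighbours lay on the long arm of chromosome 19, and AKT2 is part of it. Medians were taken over windows of 21 consecutive expressed protein-coding nuclear genes, 9433 windows in all, a description chosen after the values were seen. The protein-coding genes of the mitochondrial genome, which stood higher, were left out. The median window stood at 6.88 FPKM. The highest, from EIF3K to TIMM50 (chr19:38619082-39493785), stood at 56.4, 59.1 and 64.0 FPKM in PANC-1 1, 2 and 3, high in each, and at 55.7 FPKM over the means of the genes. The next highest that does not overlap it, on chromosome X, stood at 32.1 FPKM. The 27 highest windows all came from this run, and together they cover chr19:37411155-40413366. SPINT2 of the epithelial list and ZFP36 of the tumour suppressor list, named above among the highest members, lie in this run too. Within the highest window all 21 genes passed 10 FPKM and 13 passed 50 FPKM, a description of the window chosen for its high median. The 20 expressed genes before it had a median of 2.69 FPKM and the 20 after it 13.8 FPKM.

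Of 86 protein-coding genes in this run 47 were expressed (54.7%, against 50.2% of all protein-coding genes). Of these, 11 were picked after the values were seen and set beside partners or paralogs that lie elsewhere in the genome. PSMC4, an ATPase of the proteasome base, stood at 947, 935 and 921 FPKM, whereas the other 5 ATPases of the same ring had a median of 35.9 FPKM and the highest, PSMC3, a mean of 253 FPKM. PAF1, of the elongation complex named after it, stood at 367, 358 and 374 FPKM, and its 5 partners had means between 3.84 and 16.4 FPKM. Its level was 27.8-fold ± 1.17 (SD, n = 3) the median of those partners. FBL (fibrillarin, which methylates ribosomal RNA) stood at 944, 1097 and 1080 FPKM, against a median of 27.7 FPKM for the 3 proteins bound with it.

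Other complexes and paralogs were set side by side in the same way. EIF3K, a subunit of translation initiation factor 3, stood at 289, 302 and 288 FPKM, 8.85-fold ± 0.375 the median of 12 other subunits. RPS16 was 9.89-fold ± 0.342 the median of 29 other proteins of the small ribosomal subunit (SD, n = 3 for both), genes with many pseudogenes that share their reads. The highest of the 29, RPS12, had a mean of 1056 FPKM, against 1767 FPKM for RPS16. SUPT5H stood at 110, 112 and 107 FPKM against a mean of 16.1 FPKM for SUPT4H1, the other chain of the elongation factor DSIF. Among paralogs, ACTN4 (alpha-actinin 4, which bundles actin) was 6.92-fold ± 0.396 ACTN1, and AKT2 was 5.85-fold ± 0.394 AKT1 (SD, n = 3). The kinase gene PAK4, in the same window, was an exception at 26.6, 26.4 and 26.8 FPKM, 1.64-fold ± 0.0723 the median of PAK1 and PAK2. In all 11 sets the gene of the run stood above each of its partners. The margin was narrow for PSMD8 of the proteasome, at a mean of 144 FPKM against 130 FPKM for PSMD2. Since the sets were picked after the values were seen, this count is not a test. PANC-1 is known as a line with extra copies of this region, which include PAF1 and AKT2. Copy number was not measured here, and its part in these levels was not tested.

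**Figure D4:**
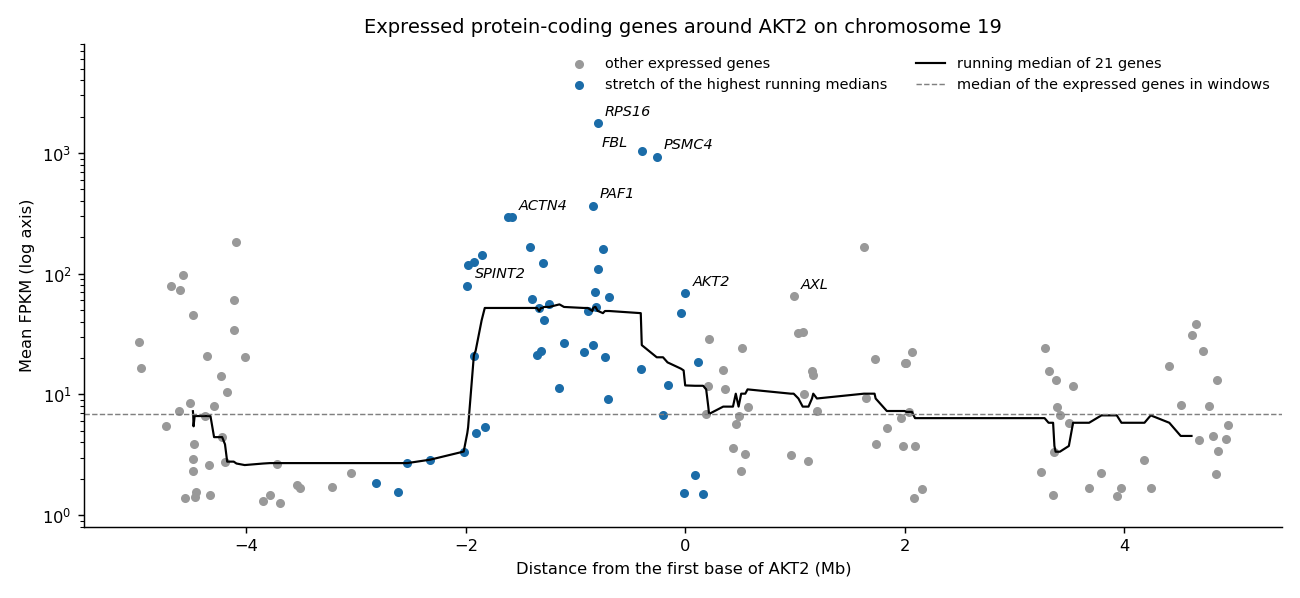
Mean FPKM on a log axis of expressed protein-coding genes within 5 Mb of AKT2 against distance from the first base of AKT2 in Mb; the black line is the running median of 21 genes and the dashed line the median of the expressed genes in the windows, 6.91 FPKM. The running median rises above 50 FPKM to the left of AKT2 and lies near the dashed line on its right.

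Genes of the HOX clusters, which mark position along the body axis, split by cluster. Of the HOXB genes 8 of 10 were expressed, of the HOXC genes 7 of 9, of the HOXA genes 3 of 11 and of the HOXD genes 0 of 9. Over all protein-coding genes, 50.2% were expressed. HOXC10 was the highest at 32.0, 33.7 and 29.8 FPKM, followed by HOXB7 at 24.0, 25.6 and 24.5 FPKM and HOXC9. The HOXD cluster summed to 0.113 ± 0.0286 FPKM, against 78.4 ± 4.04 FPKM for HOXB and 72.4 ± 3.86 FPKM for HOXC (SD, n = 3).

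The 3 samples lay close together over most genes. The median coefficient of variation (SD over mean) was 8.29% over genes with a mean of at least 1 FPKM. It fell with the level, from 12.6% at 1 to 3 FPKM to 6.35% at 10 to 30 FPKM and 3.82% in the 25 genes above 1000 FPKM. Over the expressed genes, Pearson's r of log2(FPKM + 0.1) was 0.983 between PANC-1 1 and 2, 0.982 between 1 and 3 and 0.980 between 2 and 3, values across genes, which are not independent replicates. The biological coefficient of variation that edgeR estimated from the counts of 13917 genes was 0.234. Between any pair of samples, from 195 to 222 of the 10962 expressed genes differed at least 2-fold.

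A small number of abundant genes disagreed strongly. Of 3943 genes with a mean of at least 10 FPKM, 34 (0.862%) had a highest sample at least 3 times the lowest. Of these, 13 overlap another gene with counts on the same strand, 38.2% against 20.6% of all 3943. In 9 of the 13, the counts summed over the overlapping genes differed by less than 3 times. RPL17-C18orf32, a read-through gene, stood at 0, 28.0 and 23.1 FPKM, and with RPL17 and the other genes it overlaps the summed CPM (counts scaled to the total) differed 1.03-fold. MIR1244-1, inside PTMA (prothymosin alpha), stood at 209, 0.114 and 0.135 FPKM, and summed with PTMA differed 1.48-fold. AC006011 beside POLR2D, AL662899 beside CSNK2B and AC105052 did likewise, with summed counts that differed 1.17-fold, 1.28-fold and 1.28-fold.

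The other 21 had no overlapping partner with counts, and in many 1 sample stood apart. IER2, an immediate early gene, stood at 1.003, 34.7 and 0.868 FPKM, high in PANC-1 2. AHNAK, a giant scaffold protein, stood at 1.30, 1.66 and 38.9 FPKM, high in PANC-1 3. DAG1 (dystroglycan) stood at 50.1, 4.58 and 5.66 FPKM, high in PANC-1 1. The odd sample was a different one for each of these genes. RAB31, a GTPase of vesicle transport, was high in PANC-1 2 at 6.52, 28.9 and 3.90 FPKM. HNRNPH2, an RNA-binding protein whose gene overlaps a read-through gene, was low in PANC-1 2 at 37.2, 3.74 and 37.2 FPKM, and its summed counts still differed 4.28-fold. The junction gene F11R at 8.55, 2.14 and 8.88 FPKM and the Wnt regulator APC at 1.47, 0.363 and 1.75 FPKM, both low in PANC-1 2, and MYC are the list members with a mean of at least 1 FPKM that differed by over 3 times. F11R, like HNRNPH2, overlaps another gene with counts on the same strand. Whether these differences lie in the cells or in how the estimates were made was not tested.

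**Figure D5:**
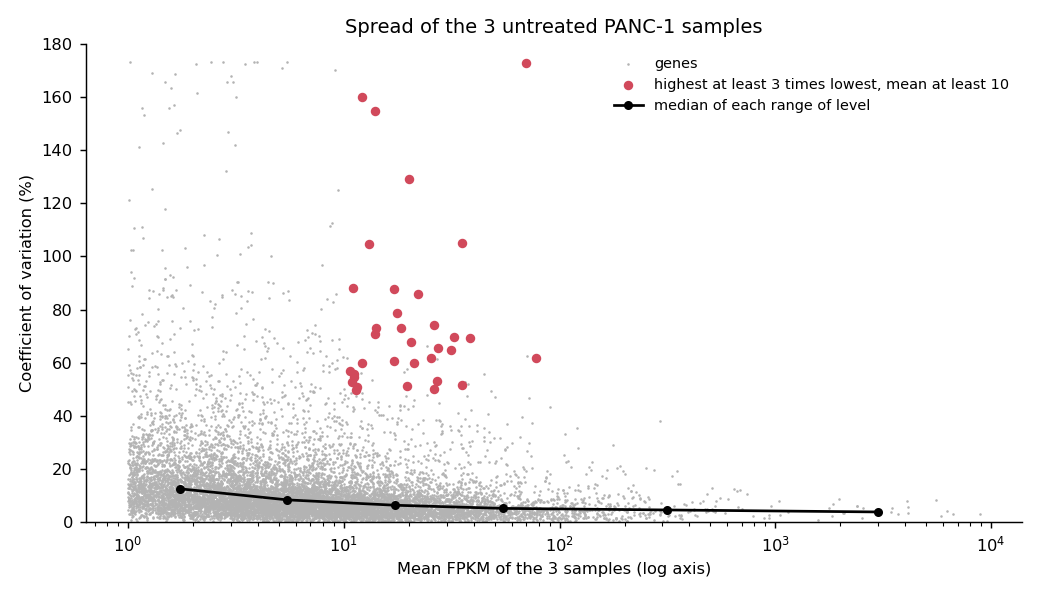
Coefficient of variation of the 3 untreated PANC-1 samples in percent against mean FPKM on a log axis, with 1 point per gene; the black line joins the medians of 6 ranges of level. The medians fall from 12.6% to 3.82%, and the 34 red points are genes with a mean of at least 10 FPKM whose highest sample is at least 3 times the lowest (RPL17-C18orf32 among them).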

How the data were processed

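RNA was measured by poly(A) RNA-seq, with stranded paired-end libraries. The authors deposited for each gene and sample an FPKM value, normalized by them per length and depth, with 0.0001 listed for no reads (taken as 0 here). The estimated counts deposited beside it are whole numbers and not normalized; since the most common value above 0 was 4, they are estimates, so no counting interval or floor was derived and the spread between samples is the error. The submitters' processing notes name cutadapt 1.9, HISAT2 2.0.4, StringTie 1.3.4d, edgeR and DESeq2. Of the gene identifiers, 58552 are in GENCODE 29 (GRCh38), 58550 at an overlapping position.

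Samples were grouped by label. With 1 group, no comparison was tested; lists are described by counts and medians beside all genes. The authors call the samples biological replicates and state for all their experiments that the repeats were independent. How these samples were grown apart is not described, so the spread may be partly technical. TMM factors (edgeR 4.0.16, R 4.3.3) were 1.00, 0.991 and 1.01, and the dispersion used genes with a mean of at least 1 CPM. Other steps used Python 3.11.15, numpy 2.4.6, pandas 2.3.3 and matplotlib 3.10.9, and were tested on simulated data. The parts described and the gene lists were chosen with earlier results of these data known.

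Genes were named by rule: the 4 markers, the 20 most abundant, the 5 highest and silent members of each list, the 3 highest of each family, the 10 least stable and those near CDKN2A. Further genes, among them those of chromosome 19, KRT7, DSP, PKP3, DSG2, CDH1, ESRP1, ESRP2, EPCAM, FN1, SNAI1, SNAI2, ZEB1, ZEB2, COL1A1, COL1A2, GATA6, SMAD4, EGFR, MYC, SFRP1, CDKN2C, CDKN2D, MUC1, MSLN, S100A16, F11R and APC, were named after their values were seen. Promoter entries covered under 80% of the protein-coding genes (76.2%) and of the silent tumour suppressors (75.0%), so sets were not compared by sequence. Some items of the naming rule are not reported here. The alternatives tried were other thresholds, scales, pseudocounts and windows, and leaving out each sample.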

Additional observations from a re-analysis of the deposited data

How the results depend on the processing

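Of 120 repeats of the results under other settings, 90 stayed within 1.5 times a count or within 1 SD of a value. Of the 12 that have a direction, those of VIM or KRT18 against KRT8, 1 turned: KRT18 against KRT8 went from 0.61 to -0.55 (log2) in estimated counts. At 5 FPKM in place of 1, 6018 genes were expressed, with 14 epithelial, 4 ductal and foregut, 1 endocrine, 30 tumour suppressor and 3 basal-like members. At 0.1 FPKM 15721 genes were expressed. The members were then 17 ductal and foregut, 3 acinar, 8 endocrine, 3 of other cell types, 4 classical and 11 stem and neural. Lists that stayed within 1.5 times of their count at 1 FPKM are left out. The share of protein-coding genes was not taken at either threshold, so these counts are not set against it. Under 0.5 FPKM 25 tumour suppressors would be silent, and 3 had no count. The 20 leading genes held 11.1% of the estimated counts, and 11.3% of FPKM without mitochondrial genes but with nuclear copies such as MTATP6P1. The median coefficient of variation was 5.78% over genes from 10 FPKM, 12.8% from 0.1 FPKM, and 6.12% to 7.51% over the remaining pairs when 1 sample was omitted. A pair tends to give a lower median than 3 samples do, so the values of pairs do not show that any sample was odd. VIM exceeded KRT8 by 1.23 (log2) in the estimated counts, which are not per length. Unstable genes numbered 284 from 1 FPKM, 119 at 2 times and 150 from 10 CPM (TMM). They numbered 22 without PANC-1 1, 25 without PANC-1 2 and 16 without PANC-1 3, and 27 or 25 with FPKM or estimated counts summed over overlapping genes. With 1 sample left out, the ratio of highest to lowest cannot exceed that over all 3 samples. Among nuclear genes, windows of 11 gave a highest median of 117 FPKM and TMM-normalized counts one of 311 CPM. Both lay on the same stretch of chromosome 19. The window settings, the summed counts and the repeats for KRT18 were chosen after seeing the data. No paired analysis was possible because only 1 group was used.

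With 3 samples, a level near 0 rests on few reads, and no limit was set for a gene without a count. Genes that share reads with copies or overlapping genes are uncertain. Copy number and methylation were not measured, protein data were not analysed here, and the part of each and of the solvent was not tested.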

Other observations

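The 3 IGF2BP genes, which encode fetal RNA-binding proteins, were all expressed. IGF2BP2 stood at 19.7, 21.1 and 19.2 FPKM, IGF2BP1 at 10.3, 10.7 and 10.5 FPKM and IGF2BP3 at 8.75, 9.07 and 9.33 FPKM, so the samples lay close together. LIN28B, a fetal regulator of let-7, stood at 2.91, 2.23 and 2.76 FPKM, while its relative LIN28A was silent. HMGA2, also of embryonic cells, stood at 20.2, 18.7 and 19.8 FPKM. Of the YAP group, YAP1 stood at 21.7, 20.6 and 21.4 FPKM, WWTR1 (TAZ) at 13.7, 12.9 and 12.05 FPKM and their partner TEAD1 at 2.43, 2.76 and 2.03 FPKM. These genes were picked after their values were seen and are given as levels only.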
